A study of Mus musculus with 13 samples.

Results

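Matrix metalloproteinases (Mmp), ADAMTS proteases (Adamts) and tissue inhibitors of metalloproteinases (Timp) were described in mammary glands and mammary tumors of MMTV-HER2/Neu mice. The members were every gene of the count table whose symbol is Mmp, Adamts or Timp followed by a digit, which gave 46 of 24421 genes. Of these, 23 were Mmp genes, 19 were Adamts genes and 4 were Timp genes. The symbol alone decides membership, and no measured value enters this rule.

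Mmp and Adamts genes code for zinc-dependent proteases that cut the matrix around cells. Most Mmp proteins are secreted as inactive precursors, whereas the membrane-type members stay at the cell surface, and the group includes collagenases, gelatinases, stromelysins and a macrophage elastase. Adamts proteins are secreted and bind the matrix, where some cut aggrecan and versican and others trim procollagen. Timp proteins bind the active site of Mmp enzymes and block it, and Timp3 also blocks several Adamts enzymes. In the mammary gland these genes take part in duct branching and in the regression of the gland after nursing, and in tumors many of them are made by fibroblasts and leukocytes rather than by the cancer cells.

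All 13 libraries came from female mice of the FVB/N transgenic line 202Mul/J (MMTV-HER2/neu), in which the mouse mammary tumor virus promoter drives a rat HER2/Neu cDNA in breast epithelium. The strain label names this line for glands and tumors alike while the genotype label reads wild type, and the presence of the transgene in the glands was not tested. There were 2 mammary glands and 3 primary tumors from untreated mice, and 3 primary tumors from mice given 1 mg/mL stavudine (STV), a nucleoside inhibitor of reverse transcriptase, in drinking water. A further 3 tumors had come back after the first tumor responded to 17-DMAG, an HSP90 inhibitor injected at 20 mg/kg (recurrent DMAG), and 2 had come back under 17-DMAG with STV (recurrent DMAG+STV). Per the study's methods, 17-DMAG injections went on while these tumors regrew, up to their end size. In recurrent against primary tumors, regrowth and ongoing 17-DMAG therefore cannot be told apart. By the study's design the primary STV tumors arose in mice given STV from month 2 of age. For the recurrent DMAG+STV tumors STV could have begun then or once a tumor had appeared, which was not stated, and ages at collection were not given in the sources used here. Each tumor was a whole-tissue sample. The labels do not say that each library came from its own mouse, and the p-values measure the spread between these libraries.

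Library totals ran from 39921388 to 56887708 counts. Levels are given in CPM, counts scaled to the TMM library size, and a floor of 3 counts lay at 0.0587 to 0.107 CPM. Intervals of counting error do not cover the spread between tumors, which was the larger, with a biological coefficient of variation of 0.402 among tumors. Luminal epithelial markers were present in all libraries, at a summed 1412 to 2966 CPM over 6 genes. A pair of libraries stood apart. In gland 2, 7 milk protein genes took 35.7% of all counts, against 3.05% in gland 1, while gland 1 had 114 CPM of 4 B cell markers against 2.18 in gland 2. Recurrent DMAG replicate 1 had 3444 CPM summed over 8 fibroblast markers, against 228 to 1257 in the other 10 tumors, and 567 CPM over 7 macrophage markers, against 154 to 289. In whole tissue, fewer cells of a type and less RNA per cell cannot be told apart.

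A run of 10 of the 23 Mmp genes lies side by side on chromosome 9, between 7272514 and 7699585 in build GRCm38, in the order Mmp13, Mmp12, Mmp1b, Mmp3, Mmp1a, Mmp10, Mmp8, Mmp27, Mmp20 and Mmp7. This 427 kb cluster holds the collagenase, stromelysin and elastase genes that respond to growth factors and cytokines in many cells. In recurrent DMAG replicate 1, 6 of its genes had their highest tumor level, while the others were at or near 0. That tumor was also the highest for 27 of 41 tested members and for 24.6% of all genes, so the peak was not confined to the cluster. Whether the cluster differed from the other members in this was not tested. Of the 6, Mmp10 had 24 counts in all, and Mmp8 was at 1.07 CPM there against 0.978 in recurrent DMAG+STV replicate 1. The promoters of all 10 are shown. Each stretch runs from 100 bases before to 20 bases after the RefSeq transcript start in GRCm38.p6 and is read 5′ to 3′ on the gene's strand. Capitals mark 2 motifs, each searched on both strands. One is TGAGTCA, the consensus bound by AP-1 factors such as Fos and Jun dimers. The other is the TATA box, which is placed close to the start of many strongly regulated genes and was searched as TATAAA. Mmp15, a membrane-type gene outside the cluster with neither motif in this stretch, is shown for contrast.
Mmp13, chr9:7272414-7272533, plus strand: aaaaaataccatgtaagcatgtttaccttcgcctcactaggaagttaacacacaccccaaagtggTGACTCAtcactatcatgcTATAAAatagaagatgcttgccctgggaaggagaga
Mmp12, chr9:7344297-7344416, plus strand: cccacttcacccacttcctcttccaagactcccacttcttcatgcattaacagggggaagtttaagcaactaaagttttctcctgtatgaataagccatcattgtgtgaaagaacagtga
Mmp12, second start, chr9:7347274-7347393, plus strand: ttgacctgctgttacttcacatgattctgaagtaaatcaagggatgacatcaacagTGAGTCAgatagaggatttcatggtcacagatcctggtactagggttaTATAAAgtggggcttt
Mmp1b, chr9:7388007-7388126, minus strand: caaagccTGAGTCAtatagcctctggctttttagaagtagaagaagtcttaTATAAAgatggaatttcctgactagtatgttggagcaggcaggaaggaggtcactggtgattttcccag
Mmp3, chr9:7445722-7445841, plus strand: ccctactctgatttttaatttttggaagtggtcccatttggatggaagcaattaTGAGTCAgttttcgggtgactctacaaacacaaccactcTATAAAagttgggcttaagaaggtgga
Mmp1a, chr9:7464041-7464160, plus strand: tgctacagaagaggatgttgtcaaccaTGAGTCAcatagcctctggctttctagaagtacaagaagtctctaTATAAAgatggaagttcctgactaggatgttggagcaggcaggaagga
Mmp10, chr9:7502242-7502361, plus strand: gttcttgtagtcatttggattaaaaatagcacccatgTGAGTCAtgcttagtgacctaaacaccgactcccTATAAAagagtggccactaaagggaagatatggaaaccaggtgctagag
Mmp8, chr9:7558329-7558448, plus strand: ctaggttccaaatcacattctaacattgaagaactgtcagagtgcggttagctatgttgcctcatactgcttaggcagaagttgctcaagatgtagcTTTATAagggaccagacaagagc
Mmp27, chr9:7571296-7571415, plus strand: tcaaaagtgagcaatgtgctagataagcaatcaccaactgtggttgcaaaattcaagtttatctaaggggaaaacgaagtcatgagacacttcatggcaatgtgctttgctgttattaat
Mmp20, chr9:7628131-7628250, plus strand: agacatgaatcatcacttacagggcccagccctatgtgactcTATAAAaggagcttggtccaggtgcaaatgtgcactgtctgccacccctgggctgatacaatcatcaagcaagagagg
Mmp7, chr9:7691990-7692109, plus strand: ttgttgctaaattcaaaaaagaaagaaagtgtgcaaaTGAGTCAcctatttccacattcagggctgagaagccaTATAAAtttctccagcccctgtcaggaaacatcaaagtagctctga
Mmp15, chr8:95352196-95352315, plus strand: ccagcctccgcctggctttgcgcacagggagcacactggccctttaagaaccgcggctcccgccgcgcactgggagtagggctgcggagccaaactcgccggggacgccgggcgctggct

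Counted over the full RefSeq window of 250 bases before to 50 after the start and on both strands, the AP-1 letters were present in 7 of the 10 cluster genes, and no other of the 32 members with a promoter entry had them. Of all 32851 RefSeq promoters, 5.2% held these letters. The TATA letters were present in 9 of the 10 cluster genes and in 11 of the 32 members, against 13.6% of all promoters. The strands of 1 motif can overlap in their matches, and a promoter was counted once. In the stretches above the AP-1 letters began at base -35 in Mmp13, -44 in the second start of Mmp12, -46 in Mmp3, -63 in Mmp10 and in Mmp7, -73 in Mmp1a and -93 in Mmp1b, counted from the annotated start at 1. Mmp27 and the first start of Mmp12 held neither motif, Mmp8 and Mmp20 held the TATA letters alone, and a second annotated start of Mmp7, not shown, held neither. These letters do not separate the genes that were read from those that were not, since Mmp1a, which was at 0 in all 13 libraries, carried both. A match is a description of the sequence and not of a bound factor.

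How strongly each member was expressed was compared per length of its exons, in RPKM, CPM divided by the exon length in kilobases. Over the 11 tumors the highest median RPKM was that of Mmp16 at 67.4, followed by Mmp15 at 46.5, both membrane-type enzymes that cut matrix proteins and activate pro-Mmp2 at the cell surface. The inhibitors Timp3 and Timp2 came next at 15.1 and 14.9 RPKM, with ranges of 6.41 to 37.9 and 5.58 to 42.1, so that their order was not set by these tumors. Adamts3 and Adamts10 followed at 10.9 and 10.1, then the gelatinase Mmp2 at 6.63 and the membrane-type Mmp14 at 6.09. Mmp15 and Mmp16 together made up 65.5% to 90.2% of the summed Mmp RPKM in 10 tumors and 33.7% in recurrent DMAG replicate 1. In the glands their share was 41.2% and 21.0%.

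Mmp16 CPM were 169 and 28.8 in the glands, 402, 210.4 and 390.4 in untreated primary tumors and 425, 328 and 401 in primary tumors with STV. For recurrent tumors the Mmp16 values were 126, 367 and 338 CPM after DMAG and 338 and 249.3 after DMAG+STV. Mmp16 (chr4:17852893-18119145) was above both glands in 10 of 11 tumors, and recurrent DMAG replicate 1 was the lowest tumor. Primary untreated tumors had 248.8, 239 and 183 CPM of Mmp15 and primary STV tumors 251.5, 184 and 283, with 168 and 74.04 in the glands. Mmp15 in recurrent tumors was 212, 207 and 273 CPM with DMAG and 313 and 199 with DMAG+STV. All tumors were above both glands for Mmp15 (chr8:95352268-95375080), and the tumor groups overlapped.

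At the other end, 5 members were too low to be tested. Mmp1a, a collagenase, and Mmp20, the enamel protease, had no count in any library. Mmp1b, a close copy of Mmp1a, had 2 counts, both in primary STV replicate 2, and reads shared between Mmp1a and Mmp1b may have been lost in counting. Mmp7, the epithelial matrilysin, had 6 counts, all in gland 1. Mmp10, stromelysin 2, had 24 counts, of which 17 were in recurrent DMAG replicate 1. The remaining 41 members passed the filter on low counts in both fits. The heat map of all tested members shows the 13 libraries side by side.

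**Figure D1:**
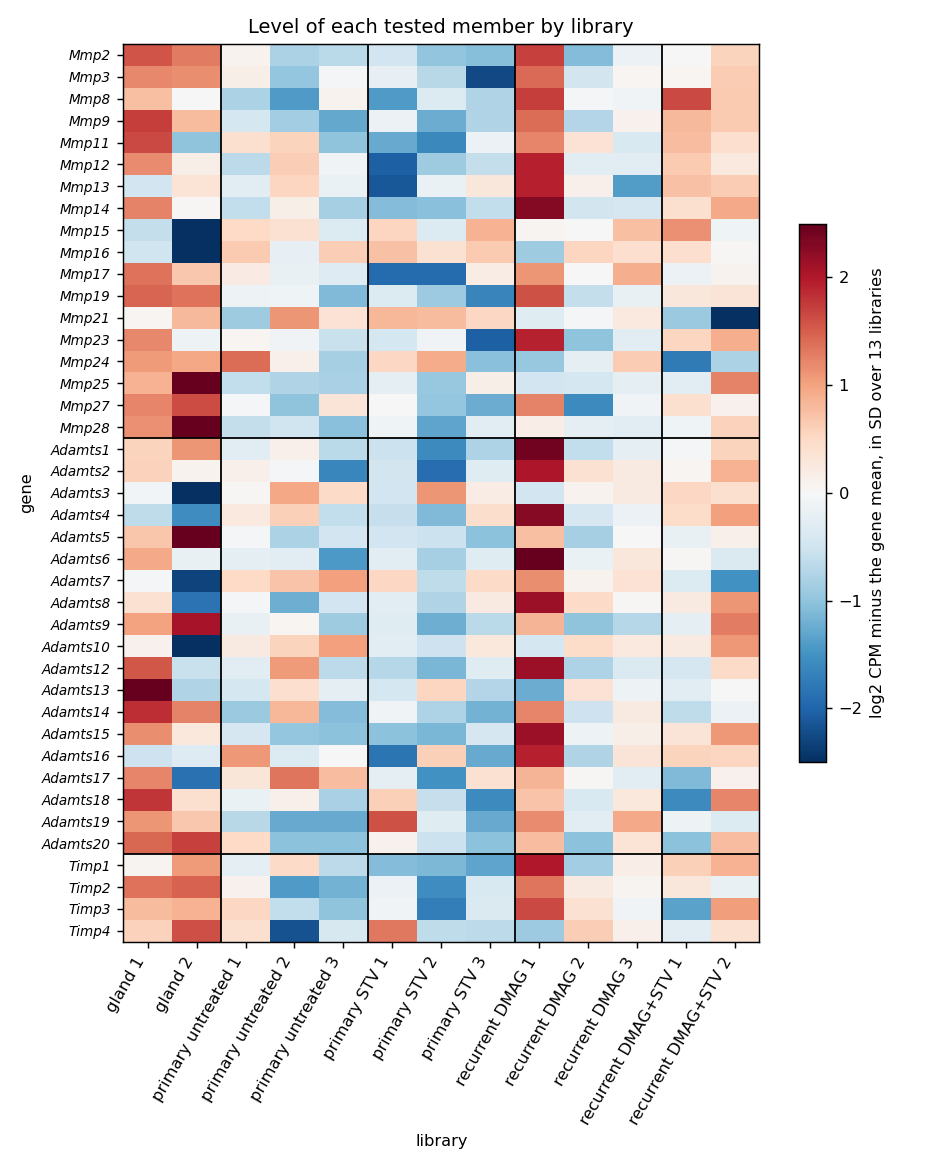
Heat map of 41 tested members (rows: Mmp, Adamts and Timp, split by lines) in 13 libraries (columns, split by group), coloured by log2 CPM minus the gene's mean in units of its SD over the 13 libraries. Recurrent DMAG replicate 1 is the highest of the 11 tumors for 27 of the 41 members, and gland 2 is the lowest library for Mmp15 and Mmp16.

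Whether tumors differ from the mammary gland was asked first. Comparing all 11 tumors with the 2 glands, 6 of 41 tested members fell and none rose (edgeR, adjusted p under 0.05), where 10.4% of 17135 genes were called and 8.81% were called lower. The members that fell were Adamts5, Mmp25, Mmp28, Timp2, Adamts9 and Mmp9. Over all 41 members, 32 had a negative and 9 a positive log2 fold change, with a median of -0.68, against -0.02 over all genes. That median was -0.28 without gland 1, with 20 of 42 members then higher in tumors, -1.01 without gland 2 and -1.05 without recurrent DMAG replicate 1. At an unadjusted p under 0.05 there were 15 members, where 29.6% of all genes passed. DESeq2 called 11 members, 9 lower and 2 higher, where it called 15.7% of the genes it tested.

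Adamts5, an aggrecan- and versican-cutting protease (aggrecanase 2, chr16:85856173-85901828), was far higher in gland 2 than in any other library. Adamts5 was read at 58.2 and 894 CPM in the glands, at 22.9, 8.36 and 12.6 in the primary untreated and at 12.8, 11.8 and 6.22 in the primary STV tumors. After DMAG the tumors that regrew held 63.1, 7.93 and 23.6 CPM of Adamts5, and after DMAG+STV 18.8 and 28.1. The tumors were lower (log2 fold change -4.70 ± 0.68 SE, edgeR adjusted p = 0.00331), although recurrent DMAG replicate 1 lay above gland 1. Without gland 2 the value was -1.59 with an adjusted p of 0.349. Its neighbour Adamts1, whose end lies 53.1 kb away on the same strand, was not set apart in gland 2. In the glands Adamts1 stood at 17.1 and 24.3 CPM, against 10.1, 13.1 and 7.78 in the primary untreated and 8.54, 4.33 and 7.38 in the primary STV tumors. Values of Adamts1 after regrowth were 55.8, 8.13 and 10.3 CPM under DMAG and 11.8 and 17.2 under DMAG+STV. The glands lay within the range of the tumors for Adamts1, whose highest library was recurrent DMAG replicate 1.

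Mmp25 is a membrane-anchored enzyme known from leukocytes (chr17:23628311-23645277). Mmp25 CPM were 3.29 and 42.5 in the glands, 0.319, 0.245 and 0.221 in untreated primary tumors and 0.599, 0.174 and 1.08 in primary tumors with STV. Recurrent DMAG tumors had 0.394, 0.424 and 0.588 CPM of Mmp25, and recurrent DMAG+STV tumors 0.547 and 5.87. It was lower in tumors (log2 fold change -5.02 ± 0.73 SE, edgeR adjusted p = 0.00349), where recurrent DMAG+STV replicate 2 lay above gland 1 and the other 10 tumors lay at or under 1.08 CPM. Mmp28, epilysin, a secreted enzyme of epithelia (chr11:83440768-83463071), showed no overlap between tumors and glands. Primary untreated tumors had 0.757, 0.836 and 0.501 CPM of Mmp28 and primary STV tumors 1.17, 0.392 and 1.01, with 3.47 and 11.99 in the glands. For recurrent tumors the Mmp28 values were 1.48, 1.05 and 1.01 CPM after DMAG and 1.17 and 2.12 after DMAG+STV. Its difference was log2 fold change -2.89 ± 0.42 SE, edgeR adjusted p = 0.00349. Of the exons of Mmp28, 12.3% are overlapped by a gene on the opposite strand, and the strand setting of the counting was not stated. Both genes were higher in gland 2 than in gland 1, and neither was called without gland 2, with log2 fold changes of -2.14 and -1.65.

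Timp2, the inhibitor that also helps membrane-type enzymes activate pro-Mmp2, was at a similar level in both glands. Timp2 was read at 159.9 and 174 CPM in the glands, at 66.5, 22.9 and 26.9 in the primary untreated and at 55.2, 20.7 and 47.0 in the primary STV tumors. Timp2 in recurrent tumors was 156, 72.2 and 64.9 CPM with DMAG and 75.2 and 54.1 with DMAG+STV. All 11 tumors lay under both glands (log2 fold change -1.57 ± 0.41 SE, edgeR adjusted p = 0.0374), with recurrent DMAG replicate 1 close to gland 1. The other inhibitors were not called. In the glands Timp3 stood at 114 and 118 CPM, against 99.2, 54.4 and 44.1 in the primary untreated and 71.5, 30.3 and 61.9 in the primary STV tumors. After DMAG the tumors that regrew held 179, 91.9 and 71.7 CPM of Timp3, and after DMAG+STV 37.0 and 130.3. Timp3 is held in the matrix and its tumor values reached those of the glands in 2 recurrent tumors. Timp1 CPM were 3.23 and 7.49 in the glands, 2.49, 4.54 and 1.72 in untreated primary tumors and 1.197, 1.15 and 0.970 in primary tumors with STV. Values of Timp1 after regrowth were 16.5, 1.45 and 3.48 CPM under DMAG and 5.02 and 6.34 under DMAG+STV. Timp1, the soluble inhibitor induced in inflamed tissue, overlapped between tumors and glands (log2 fold change -0.66 ± 0.66 SE, edgeR adjusted p = 0.524). Primary untreated tumors had 2.13, 0.0408 and 0.742 CPM of Timp4 and primary STV tumors 6.75, 0.544 and 0.527, with 2.63 and 9.85 in the glands. Recurrent DMAG tumors had 0.370, 2.79 and 1.49 CPM of Timp4, and recurrent DMAG+STV tumors 0.880 and 2.08. Timp4 overlapped too (log2 fold change -2.002 ± 1.04 SE, edgeR adjusted p = 0.225).

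Adamts9, a versican-cutting protease of vessels and stroma, and Mmp9, the gelatinase of neutrophils and macrophages, were the remaining members called. Adamts9 was read at 23.2 and 59.6 CPM in the glands, at 7.83, 9.72 and 4.19 in the primary untreated and at 7.05, 3.07 and 5.04 in the primary STV tumors. For recurrent tumors the Adamts9 values were 20.2, 3.75 and 4.89 CPM after DMAG and 7.49 and 29.5 after DMAG+STV. Tumors had less Adamts9 (log2 fold change -2.20 ± 0.58 SE, edgeR adjusted p = 0.0377), with recurrent DMAG+STV replicate 2 above gland 1. In the glands Mmp9 stood at 10.6 and 2.85 CPM, against 0.478, 0.245 and 0.120 in the primary untreated and 0.737, 0.131 and 0.295 in the primary STV tumors. Mmp9 in recurrent tumors was 6.62, 0.313 and 1.09 CPM with DMAG and 2.89 and 2.32 with DMAG+STV. Tumors had less Mmp9 (log2 fold change -2.84 ± 0.79 SE, edgeR adjusted p = 0.0453), and 2 tumors overlapped the range of the glands, recurrent DMAG replicate 1 and recurrent DMAG+STV replicate 1. The calls of Timp2, Adamts9 and Mmp9 lay close to the threshold, and were lost without gland 2 and without 7, 7 and 9 other single libraries, respectively.

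A total of 5 members did not overlap between tumors and glands, where 11.5% of all genes did not. They were Mmp15, higher in tumors (log2 fold change 0.97 ± 0.31 SE, edgeR adjusted p = 0.0687), and Mmp28, Timp2, Adamts14 and Adamts20, lower in tumors. Mmp15 did not pass the test, nor did Mmp16 (log2 fold change 1.69 ± 0.61 SE, edgeR adjusted p = 0.0977), and DESeq2 called both higher, with adjusted p of 0.0177 and 0.0149. Without gland 1, 20 of 42 members were higher in tumors. Among them were 5, Mmp15, Mmp16, Adamts3, Adamts7 and Adamts10, with log2 fold changes of 1.72 to 3.69. These 5 had less in gland 2 than in gland 1, as with 5.10 against 46.6 CPM for Adamts3, the procollagen-trimming protease. Without gland 2 no member was called, with Adamts13 the nearest at an adjusted p of 0.05004 (log2 fold change -2.24). Without recurrent DMAG replicate 1, edgeR called 13 of 41 members, all lower, where it called 3100 of 17000 genes. Among the 13 were Mmp2 at -2.22 and Mmp3 at -3.55. The plot of fold changes against the glands gives all 41 members.

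**Figure D2:**
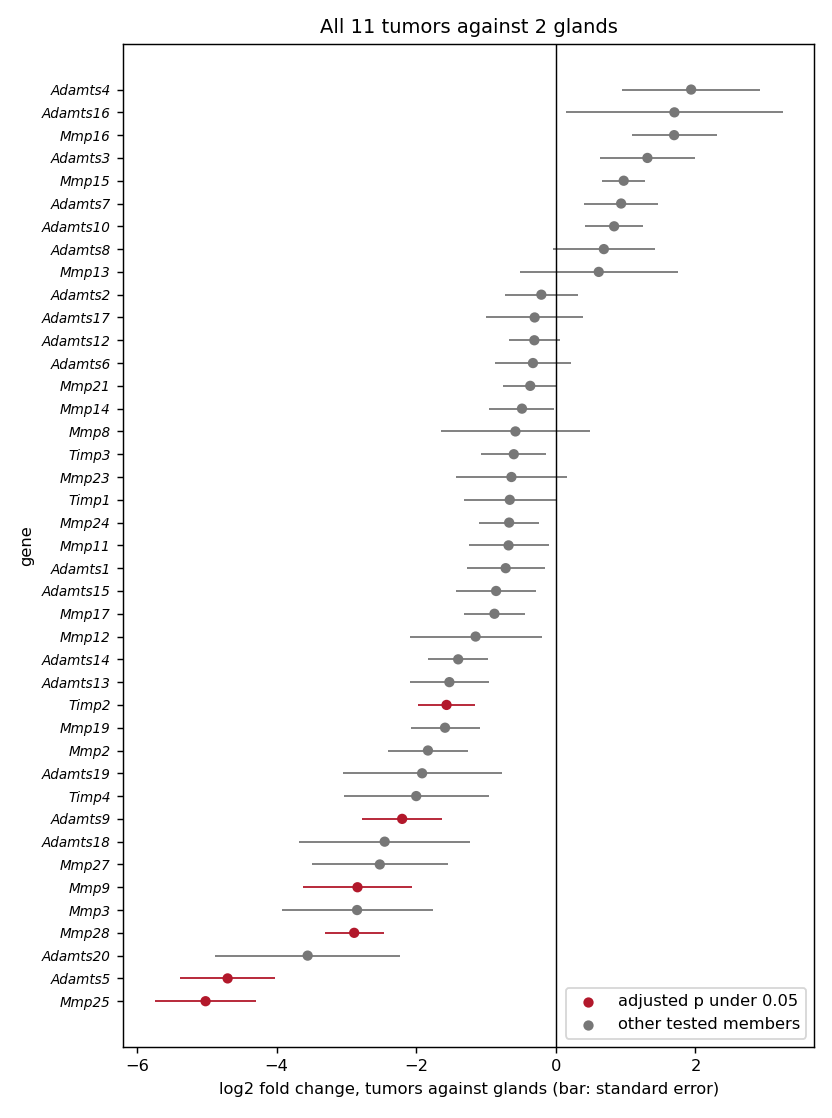
Log2 fold change of 41 members in all 11 tumors against 2 mammary glands (points) with the standard error (bars); red points passed the edgeR test. The 6 red points, Mmp25, Adamts5, Mmp28, Mmp9, Adamts9 and Timp2, all lie left of 0, and the 9 members right of 0 are not called.

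Against the glands, the primary untreated tumors alone gave 3 called members, Mmp28, Mmp25 and Adamts5, all lower, where 2.11% of genes were called. Their log2 fold changes were -3.46 ± 0.61, -6.44 ± 1.23 and -5.02 ± 1.07 (SE), with edgeR adjusted p of 0.0369, 0.0397 and 0.0468. An unadjusted p under 0.05 was reached by 15 members, where 24.5% of all genes reached it. DESeq2 called 10 members, where it called 11.4% of genes. The number of calls moved with single libraries. With any of 7 tumors left out edgeR called 0 members, and without primary STV replicate 2 it called 1. Without recurrent DMAG replicate 1 it called 9 of 41 members, all lower, where it called 1360 of 17000 genes. Leaving out a gland leaves 1 gland, so only effect sizes are given for these fits. The members' median log2 fold change was -0.46 without gland 1 and -1.24 without gland 2. Without gland 2 the values of Mmp28, Mmp25 and Adamts5 were -2.22, -3.55 and -1.9.

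Markers of other cell types moved with the gland comparison. Adipocyte markers were lower in tumors for 6 of 6 genes, of which 5 were called, at a summed 736 to 925 CPM in the glands against 5.31 to 110.9 in tumors. Myoepithelial markers were lower for 7 of 7, of which 5 were called, at 334 to 961 against 22.6 to 269.8 CPM. Fibroblast markers were lower for 8 of 8 (1 called), endothelial for 6 of 6 (1 called), macrophage for 7 of 7 (0 called) and mast cell markers for 4 of 4 (0 called). Of leukocyte markers, 5 of 5 for neutrophils (2 called), 5 of 5 for T cells (4 called) and 3 of 3 for B cells (3 called) were lower, and milk protein genes were lower for 7 of 7 (5 called). Skeletal muscle markers were lower for 8 of 8 (0 called). Proliferation markers were higher for 6 of 6 (0 called), luminal for 4 of 6, with 2 called lower, and cartilage and bone for 3 of 6, with 1 called lower. The lists also moved with single glands. Without gland 1 the neutrophil markers were lower for 3 of 5 genes, the T cell markers for 2 of 5 and the macrophage markers for 2 of 7. Without gland 2 the milk protein genes were lower for 4 of 7, and skeletal muscle markers were higher for 8 of 8. Skeletal muscle markers summed to 1705 CPM in gland 2 and 6.20 in gland 1. Between the glands, Mmp25 was higher in gland 2 (42.5 against 3.29 CPM in gland 1) and Mmp9 was lower there (2.85 against 10.6). Neutrophil markers summed to 3.82 CPM in gland 2 against 18.2 in gland 1, and macrophage markers to 225 against 389. The part of these cells in the values of the members, such as Mmp9 and Mmp25, was not tested.

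Recurrent tumors were compared with primary tumors in each water arm. Averaged over both arms, 33 of 41 members had a positive log2 fold change, with a median of 1.15, against 0.00 over all genes. No member was called by edgeR, where 0% of 16870 genes were called, and the smallest adjusted p among members was 0.287. At an unadjusted p under 0.05 there were 18 members, 17 higher and 1 lower, where 13.6% of all genes reached this p and 7.61% did so with a higher level. DESeq2 called 4 members, Mmp9, Mmp8, Adamts15 and Timp1, all higher, where it called 2.04% of the genes it tested. The Mmp, Adamts and Timp genes had median log2 fold changes of 1.26, 1.15 and 0.85.

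Adamts15, a versican- and aggrecan-cutting protease (chr9:30899155-30922452), was the 1 of 41 tested members without overlap between primary and recurrent tumors over the 11 libraries. Of all genes, 1.34% did not overlap. Adamts15 CPM were 22.2 and 10.49 in the glands, 5.89, 3.77 and 3.59 in untreated primary tumors and 3.57, 3.22 and 5.88 in primary tumors with STV. After DMAG the tumors that regrew held 49.9, 7.62 and 9.51 CPM of Adamts15, and after DMAG+STV 10.97 and 20.9. All 5 recurrent tumors lay above all 6 primary tumors, with a log2 fold change of 2.12 ± 0.50 SE (edgeR adjusted p = 0.287) in edgeR, and DESeq2 gave an adjusted p of 0.00282. Without recurrent DMAG replicate 1 its value was 1.43, with an edgeR adjusted p of 0.208. Adamts8, its neighbour 20.1 kb away on the opposite strand and a related protease, overlapped between primary and recurrent tumors. Primary untreated tumors had 3.52, 1.41 and 2.49 CPM of Adamts8 and primary STV tumors 2.97, 2.02 and 4.34, with 4.85 and 0.856 in the glands. Values of Adamts8 after regrowth were 18.9, 5.27 and 3.71 CPM under DMAG and 4.32 and 8.50 under DMAG+STV. Its log2 fold change was 1.47 ± 0.47 SE (edgeR adjusted p = 0.313), and 13.5% of its exons are overlapped by an antisense gene.

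Among the secreted Mmp genes of leukocytes, Mmp9 had a log2 fold change of 2.99 ± 0.79 SE (edgeR adjusted p = 0.287). Of the 5 recurrent tumors 4 lay above all primary tumors for Mmp9, whose CPM are given above, and recurrent DMAG replicate 2, at 0.313, lay within the primary range. DESeq2 gave an adjusted p of 0.00744 for it. Mmp8, the neutrophil collagenase, was scarce, with 16 counts in all 6 primary tumors together against 124 in the 5 recurrent ones, of which 46 were in recurrent DMAG replicate 1 and 50 in recurrent DMAG+STV replicate 1. Mmp12 was read at 26.4 and 7.14 CPM in the glands, at 2.57, 12.9 and 5.29 in the primary untreated and at 0.414, 1.91 and 2.78 in the primary STV tumors. Recurrent DMAG tumors had 68.9, 4.24 and 4.20 CPM of Mmp12, and recurrent DMAG+STV tumors 13.3 and 8.09. Mmp12, the macrophage elastase, was highest in recurrent DMAG replicate 1, at 16.3 times the median of the other 10 tumors. Its log2 fold change was 2.27 ± 0.84 SE (edgeR adjusted p = 0.327). In the glands Mmp19 stood at 11.6 and 10.8 CPM, against 3.60, 3.65 and 1.72 in the primary untreated and 3.06, 2.002 and 1.14 in the primary STV tumors. For recurrent tumors the Mmp19 values were 12.9, 2.55 and 3.46 CPM after DMAG and 4.87 and 5.01 after DMAG+STV. Mmp19, also known from macrophages, overlapped between the groups, at 1.16 ± 0.46 SE (edgeR adjusted p = 0.338), and 22.8% of its exons are overlapped by Tmem198b on the opposite strand.

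Mmp2 CPM were 118 and 92.8 in the glands, 32.9, 15.6 and 17.3 in untreated primary tumors and 20.4, 13.1 and 12.5 in primary tumors with STV. Mmp2 in recurrent tumors was 131, 12.2 and 27.1 CPM with DMAG and 30.8 and 49.5 with DMAG+STV. Mmp2 is the gelatinase of fibroblasts, and its highest tumor, recurrent DMAG replicate 1, was 6.93 times the median of the others and above both glands. Primary untreated tumors had 3.96, 0.448 and 2.69 CPM of Mmp3 and primary STV tumors 2.05, 0.783 and 0, with 29.4 and 26.8 in the glands. After DMAG the tumors that regrew held 43.0, 1.25 and 3.23 CPM of Mmp3, and after DMAG+STV 3.25 and 9.83. Mmp3, stromelysin 1, was at 0 in primary STV replicate 3, which allows up to 0.0633 CPM, and highest in recurrent DMAG replicate 1. The log2 fold changes were 1.37 ± 0.54 SE (edgeR adjusted p = 0.336) for Mmp2 and 2.76 ± 1.14 SE (edgeR adjusted p = 0.343) for Mmp3. Mmp13 was read at 0.727 and 1.78 CPM in the glands, at 0.916, 2.24 and 1.04 in the primary untreated and at 0.0921, 1.04 and 1.69 in the primary STV tumors. Values of Mmp13 after regrowth were 9.98, 1.43 and 0.252 CPM under DMAG and 2.74 and 2.45 under DMAG+STV. Mmp13, collagenase 3, reached 9.98 CPM in recurrent DMAG replicate 1 and at most 2.74 in the other 10 tumors, and had no p under 0.05. In the glands Mmp11 stood at 12.8 and 2.36 CPM, against 5.79, 6.399 and 2.35 in the primary untreated and 1.98, 1.59 and 4.09 in the primary STV tumors. Recurrent DMAG tumors had 9.70, 5.61 and 3.48 CPM of Mmp11, and recurrent DMAG+STV tumors 7.33 and 5.87. Mmp11, stromelysin 3 of the tumor stroma, had a log2 fold change of 0.86 ± 0.38 SE (edgeR adjusted p = 0.363).

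Mmp14 CPM were 62.4 and 33.0 in the glands, 23.6, 35.1 and 21.1 in untreated primary tumors and 18.4, 18.8 and 23.6 in primary tumors with STV. For recurrent tumors the Mmp14 values were 109, 25.5 and 26.2 CPM after DMAG and 40.1 and 53.3 after DMAG+STV. Mmp14, the membrane-type activator of pro-Mmp2, had a log2 fold change of 1.10 ± 0.38 SE (edgeR adjusted p = 0.314), and the value without recurrent DMAG replicate 1 was 0.58. Mmp15 and Mmp16, the membrane-type genes with the most RNA, had 0.06 ± 0.17 and -0.34 ± 0.28, and an unadjusted p above 0.26 each. Timp1, whose CPM are given above, had a log2 fold change of 1.82 ± 0.56 SE (edgeR adjusted p = 0.311), with 3 of 5 recurrent tumors above all 6 primary tumors. Timp2 had 0.99 ± 0.38 SE (edgeR adjusted p = 0.334). Primary untreated tumors had 22.8, 20.6 and 7.38 CPM of Adamts2 and primary STV tumors 15.8, 6.16 and 17.3, with 30.7 and 22.4 in the glands. Adamts2 in recurrent tumors was 77.6, 27.1 and 24.3 CPM with DMAG and 21.8 and 36.8 with DMAG+STV. Adamts2, a procollagen-trimming protease, had 1.25 ± 0.44 SE (edgeR adjusted p = 0.314). Adamts6 was read at 7.11 and 3.68 CPM in the glands, at 3.56, 3.53 and 1.76 in the primary untreated and at 3.52, 2.52 and 3.46 in the primary STV tumors. After DMAG the tumors that regrew held 20.7, 3.71 and 4.85 CPM of Adamts6, and after DMAG+STV 4.18 and 3.32. Adamts6 was at 20.7 CPM in recurrent DMAG replicate 1 and at most 4.85 in the other 10 tumors.

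**Figure D3:**
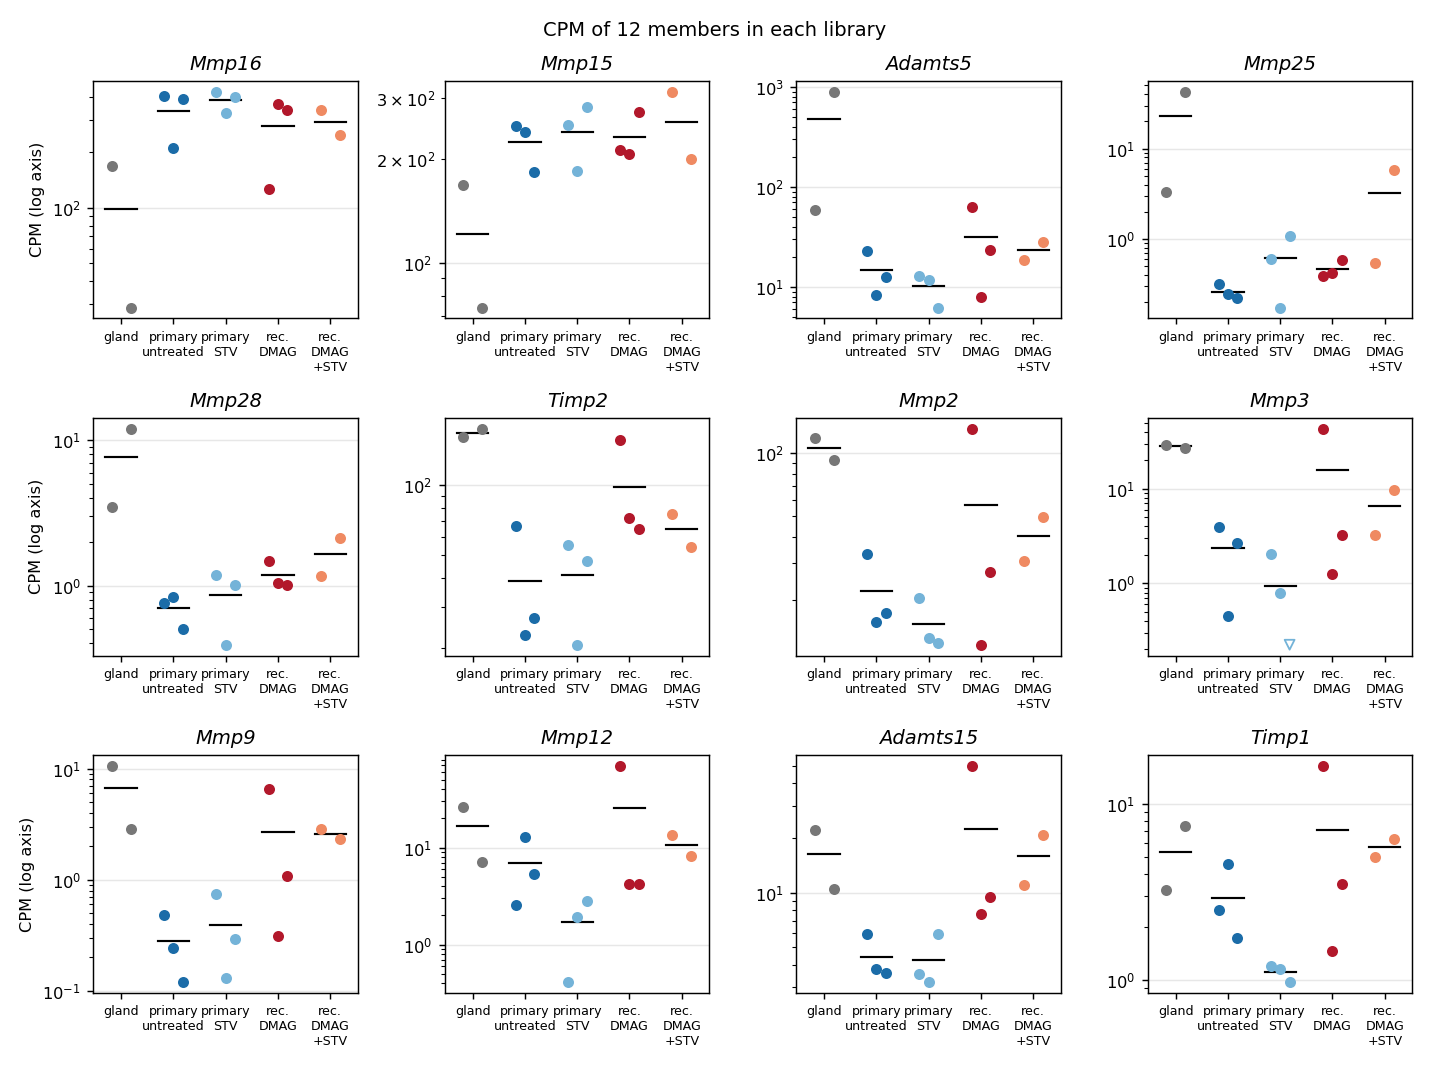
CPM on a log axis of 12 members in each of the 13 libraries (points, coloured by group; black lines: group means; open triangle: a library at 0). For Adamts15 all 5 recurrent tumors lie above all 6 primary tumors, and for Mmp2, Mmp3, Mmp12 and Timp1 the top point is recurrent DMAG replicate 1.

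The size of the recurrence difference rested on recurrent DMAG replicate 1. This tumor was the highest of the 11 for 27 of 41 members, where it was the highest for 24.6% of all genes. For 28 members it exceeded 2 times the median of the other tumors, and the share of all genes that did so was not counted. This tumor was the lowest for 2 members, Mmp16 and Adamts13. Without it the members' median log2 fold change was 0.58 in place of 1.15, 35 of 41 were positive, and 10 members had an unadjusted p under 0.05. The log2 fold changes were then 2.03 for Mmp9, 1.35 for Mmp3, 1.06 for Timp1, 0.97 for Mmp12, 0.95 for Adamts8, 0.88 for Adamts2, 0.74 for Timp2 and 0.61 for Mmp2. Leaving out recurrent DMAG+STV replicate 2 gave a median of 1.00. In fits that left out a library, the share of all genes under an unadjusted p of 0.05 was not counted. Counts of members or listed genes at this p in such fits therefore have no background.

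Between recurrent DMAG and primary untreated tumors, 33 of 41 members were higher, with a median log2 fold change of 1.06 against -0.01 over all genes. Again 0 were called (0% of genes by edgeR, and 0 members by DESeq2, which called 0.324% of genes). An unadjusted p under 0.05 was found for 6 members, where 9.69% of all genes had one, and 7 did not overlap, where 15.1% of genes did not. All 7 were higher, where 7.65% of genes were higher without overlap. Without recurrent DMAG replicate 1 the median was 0.01, 21 members were positive and Adamts15 was the 1 member under 0.05, at 0.96.

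Under STV, recurrent DMAG+STV tumors against primary STV tumors gave 34 of 41 higher members and a median of 1.17, against 0.01 over all genes. edgeR called 0 members (0% of genes), and DESeq2 also called 0 members, where it called 1.61% of genes. Of the 41 members, 19 did not overlap, 18 higher and 1 lower. With groups of 3 and 2, 35.3% of genes did not overlap, 17.4% higher and 17.9% lower. There were 9 members with an unadjusted p under 0.05, where 10.1% of genes had one. The smallest of these p belonged to Mmp21, which had -1.43 ± 0.49 SE (edgeR adjusted p = 0.426), at 1.15, 1.13 and 1.01 CPM in the primary STV tumors against 0.547 and 0.265 CPM in the recurrent ones. Timp1 had 2.36 ± 0.83 SE (edgeR adjusted p = 0.44). Without recurrent DMAG+STV replicate 2, the median was 0.51, and Mmp8 was the 1 member with an unadjusted p under 0.05.

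These arms share no library. A positive log2 fold change in both was found for 31 members, and one above 1 in both for 19. Without recurrent DMAG replicate 1 these numbers were 18 and 1, and the members above 1 in the arm without STV went from 22 to 3. The member above 1 in both arms then was Mmp9 alone, chosen for naming after its values were seen. The plot of both arms shows this shift along the horizontal axis.

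**Figure D4:**
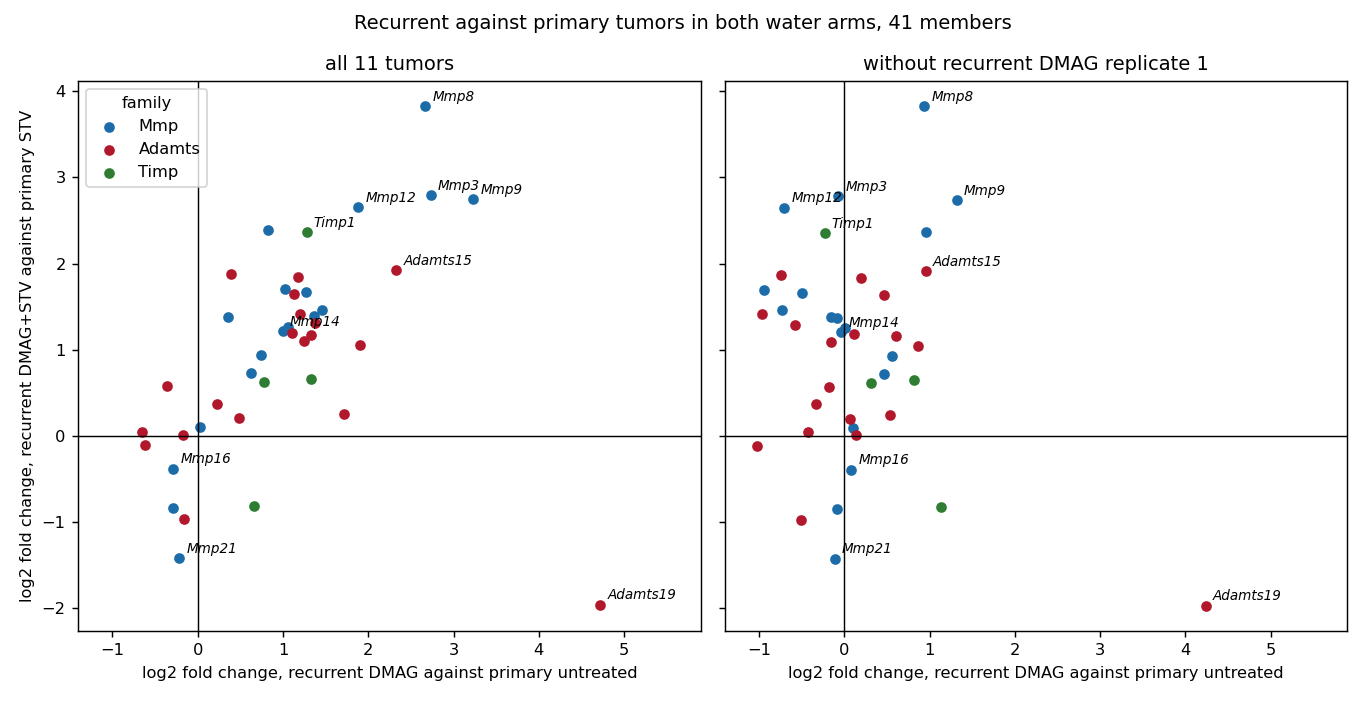
Log2 fold change of 41 members in recurrent against primary tumors without STV (horizontal) and under STV (vertical), with all 11 tumors (left) and without recurrent DMAG replicate 1 (right). On the left 31 members lie above 0 on both axes, on the right 18 do; the point of Adamts19 at the far right rests on 2 counts in the primary untreated tumors.

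Effects of STV on the members were then compared. In primary tumors 29 of 41 members were lower with STV, at a median log2 fold change of -0.42 against -0.03 over all genes. The median was -0.23 without primary untreated replicate 1 and -0.18 without replicate 2. None was called (0% of genes by edgeR; DESeq2 called 0 members and 0.0884% of genes). At an unadjusted p under 0.05 there were 2, where 3.76% of genes passed, namely Adamts10 and the scarce Adamts19. In the glands Adamts10 stood at 56.7 and 13.6 CPM, against 59.9, 69.9 and 87.1 in the primary untreated and 47.8, 42.3 and 60.9 in the primary STV tumors. Values of Adamts10 after regrowth were 44.0, 67.1 and 60.3 CPM under DMAG and 59.7 and 89.7 under DMAG+STV. For Adamts10, a protease bound to fibrillin microfibrils, the difference was -0.54 ± 0.23 SE (edgeR adjusted p = 1). Adamts19 had 2, 0 and 0 counts in the untreated tumors and 48, 4 and 0 in the STV tumors, so that a single tumor held most of its counts. Timp1 was the 1 member without overlap, lower in all 3 STV tumors, where 10.8% of genes did not overlap, at -1.41 ± 0.76 SE (edgeR adjusted p = 1). For Mmp16 and Mmp15 the log2 differences were 0.19 ± 0.38 and 0.09 ± 0.22 (SE), which leaves changes of either sign possible.

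In recurrent tumors 30 of 41 members were lower with STV, with a median of -0.42 against 0.00 over all genes. No member was called (0% of genes by edgeR; DESeq2 called 0 members and 1.33% of genes). Both members with an unadjusted p under 0.05, where 7.84% of genes had one, were Mmp25, at 2.78 ± 0.90 SE (edgeR adjusted p = 0.474), and Adamts7, at -1.35 ± 0.46 SE (edgeR adjusted p = 0.497). Adamts7 CPM were 17.9 and 3.93 in the glands, 25.7, 29.6 and 36.4 in untreated primary tumors and 25.99, 12.1 and 25.2 in primary tumors with STV. Recurrent DMAG tumors had 39.7, 19.5 and 23.4 CPM of Adamts7, and recurrent DMAG+STV tumors 14.8 and 6.71. Adamts7, a protease that cuts cartilage oligomeric matrix protein, was lower in both DMAG+STV tumors than in all 3 DMAG tumors. The Mmp25 value came from recurrent DMAG+STV replicate 2, at 5.87 CPM against 0.547 in replicate 1. In all, 3 members did not overlap, Adamts3, Adamts7 and Mmp21, where 21.5% of genes did not. The direction of the members turned on recurrent DMAG replicate 1, without which 29 of 41 were higher with STV and the median was 0.57. Without other single tumors the median went from -0.79, without recurrent DMAG replicate 2, to -0.21, without recurrent DMAG+STV replicate 1.

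The interaction asks whether the recurrence difference depended on STV. It called 0 members (0% of genes by edgeR; DESeq2 called 0 members and 0.908% of genes). There were 2 members under an unadjusted p of 0.05, Adamts10 at 0.93 ± 0.34 SE (edgeR adjusted p = 0.576) and Adamts19, where 7.84% of genes were under it. The median over members was 0.09, against 0.03 over all genes. Without recurrent DMAG replicate 1 it was 0.95, with 9 members under 0.05, a count with no share of all genes beside it. Leaving out single tumors moved the median from -0.34, without recurrent DMAG+STV replicate 2, to that 0.95, and it was negative in 7 of 11 such fits.

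Other genes of matrix turnover were counted from lists of the pathway. In recurrent against primary tumors, averaged over both arms, 16 of 16 matrix substrates were higher with a median log2 fold change of 1.42, and 8 had an unadjusted p under 0.05, beside the 7.61% of all genes that were higher at this p. Without recurrent DMAG replicate 1 all 16 were still higher, the median was 0.66, and 4 had such a p. Among these, the cartilage collagen gene Col2a1 had 3.58 ± 1.06 (SE), and 1.92 without that tumor. The fibrillar collagen gene Col1a1 had 2.05 ± 0.61, and 1.15 without it, and the proteoglycan gene Bgn had 1.70 ± 0.48, and 1.05 without it. Of 9 genes of the plasminogen system, which activates several pro-Mmp enzymes, 8 were higher, with a median of 0.87, and 7 with a median of 0.43 without recurrent DMAG replicate 1. Among them the urokinase receptor Plaur had 1.33 ± 0.42 and urokinase, Plau, had 1.03 ± 0.42, and without that tumor they had 0.81 and 0.47. None of the genes of these lists was called by edgeR, and the smallest adjusted p was 0.289.

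Cathepsins and cystatins had 9 of 11 genes higher with a median of 0.41, and 8 with 0.25 without recurrent DMAG replicate 1. ADAMTS-like genes had 5 of 5 higher with 0.96, and 5 with 0.41 without it, and ADAM sheddases had 7 of 9 higher with 0.44, and 7 with 0.22 without it. Activators and surface regulators had 12 of 15 higher with 0.18 and 0.22, and surface and matrix serine proteases with their inhibitors had 5 of 9 higher with 0.04 and 0.02, with all tumors and without that one.

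Against the glands, 8 genes of these lists were called, all lower in tumors, where 8.81% of all genes were called lower. They were 1 of 15 activators and surface regulators, 2 of 11 cathepsins and cystatins, and 2 of 9 surface and matrix serine proteases with their inhibitors. The rest were 1 of 16 matrix substrates and 2 of 5 ADAMTS-like genes. Of the plasminogen system 0 of 9 were called, and of ADAM sheddases 0 of 9. The proteoglycan gene Spock2 had -2.38 (edgeR adjusted p = 0.00266), and was the 1 of the 8 still called without gland 2, at -2.05. The cathepsin genes Ctsb (-1.07, edgeR adjusted p = 0.0251) and Ctsc (-1.42, 0.0352) were higher in gland 2 than elsewhere. Ctsc was at 364 CPM in gland 2, against 76.8 in gland 1 and 57.5 to 119 in the tumors, and Ctsb at 1429 CPM in gland 2, against 603 in gland 1 and 396 to 672 in the tumors. Without gland 2 the value of Ctsb was -0.23 and that of Ctsc turned to 0.19. The matrix serine proteases Htra1 (-2.62, edgeR adjusted p = 0.0163) and Htra3 (-1.68, 0.0342), the Adamts13 substrate Vwf (-2.44, 0.0341), and Adamtsl1 (-2.005, 0.0400) and Adamtsl5 (-2.03, 0.0372) had -2.58, -1.74, -2.45, -1.59 and -1.58 without gland 2. Htra3 and Vwf were not called without gland 1 either, at -1.48 and -2.30.

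Cell type markers moved with recurrence as well. Fibroblast markers were higher for 8 of 8 genes, with a median log2 fold change of 1.16, and macrophage markers for 7 of 7, with 0.72. Without recurrent DMAG replicate 1 the same counts held, with medians of 0.48 and 0.41. Mast cell markers were higher for 4 of 4 (median 2.28), skeletal muscle for 8 of 8 (1.33), myoepithelial for 7 of 7 (0.85) and endothelial for 6 of 6 (0.36). Without that tumor these counts were 4, 8, 6 and 2. Skeletal muscle markers were higher for 0 of 8 without recurrent DMAG+STV replicate 2. Luminal and adipocyte markers were higher for 4 of 6 each, T cell markers for 3 of 5 and proliferation markers for 0 of 6. In recurrent DMAG replicate 1 the neutrophil markers summed to 14.4 CPM over 5 genes, against 2.48 to 8.32 in the other tumors, and the endothelial markers to 280.3 CPM, against 68.3 to 149. Skeletal muscle markers varied from 0.737 to 1542 CPM among tumors. Of the measured markers of these lists, 1 neutrophil gene was at 0 in all primary STV tumors, and no fibroblast, macrophage or endothelial gene was at 0 throughout a group. Whether the share of these cells accounts for the members' values was not tested.

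Over the 11 tumors 19 gene and marker pairs were correlated, each gene in log2 CPM with the mean log2 CPM of a marker list. The pairs were fixed from the known main source of each gene. No gene was correlated with any other list, so a value does not set its list apart from the others. Among the tumors, recurrent DMAG replicate 1 had the highest score for fibroblasts, macrophages and neutrophils alike. Of these, 7 passed both Pearson's and Spearman's permutation test after adjustment over the 19 pairs. With fibroblast markers the values were r = 0.898 and rho = 0.982 for Mmp2, 0.960 and 0.918 for Mmp3, 0.937 and 0.945 for Adamts5, and 0.944 and 0.891 for Mmp23. Their adjusted permutation p were 0.000697 and 0.00019, 0.00057 and 0.00146, 0.00057 and 0.000285, and 0.000874 and 0.00204. Mmp8 followed neutrophil markers with r = 0.832 and rho = 0.861, Mmp19 followed macrophage markers with 0.893 and 0.864, and Mmp12 followed macrophage markers with 0.822 and 0.718. Their adjusted permutation p were 0.00117 and 0.00402, 0.000874 and 0.00402, and 0.00365 and 0.0442. The other pairs did not pass both tests. With fibroblast markers these were Mmp11, Mmp14, Timp2, Timp3 and Adamts2, at r of 0.429 to 0.693 and rho of 0.536 to 0.618. Mmp9 had 0.812 and 0.600 with neutrophil markers, and Mmp13 had 0.674 and 0.527 with macrophage markers. Adamts1, Adamts4 and Adamts9 had r of 0.796 to 0.897 and rho of 0.491 to 0.682 with endothelial markers.

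Leaving out the 2 tumors farthest from the median score kept 3 pairs, all with fibroblast markers. Over the other 9 tumors Mmp2 had r = 0.978, Mmp3 had r = 0.827 and Adamts5 had r = 0.925, with adjusted exact permutation p of 0.000157, 0.0308 and 0.0116. Mmp8, Mmp12, Mmp19 and Mmp23 no longer passed both tests over the other 9 tumors, where r was 0.659, 0.522, 0.724 and 0.777. Mmp15 had r = -0.193 and Timp1 had r = 0.529 with luminal epithelial markers, with adjusted permutation p of 0.618 and 0.0999. These tests pool all 4 tumor groups, since a group holds at most 3 tumors and gives no value of its own.

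**Figure D5:**
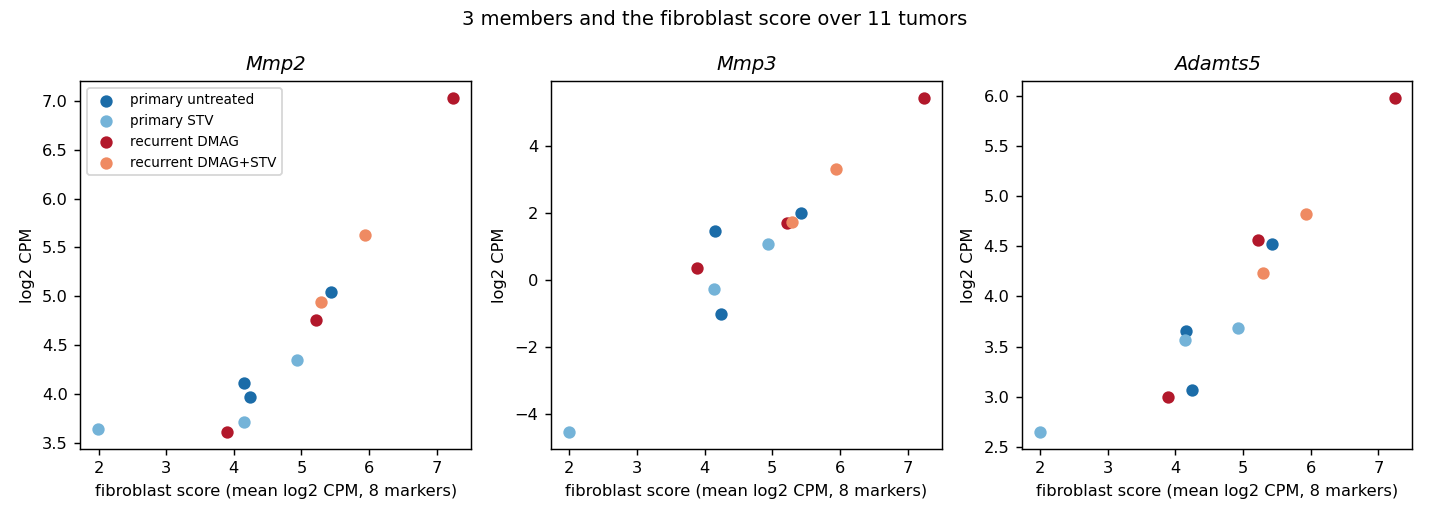
Log2 CPM of Mmp2, Mmp3 and Adamts5 (vertical) against the fibroblast score, the mean log2 CPM of 8 markers (horizontal), in 11 tumors coloured by group. Recurrent DMAG replicate 1 is at the upper right at a score of 7.24 and primary STV replicate 3 at the left at 1.99; r over the 9 tumors without them is 0.978, 0.827 and 0.925.

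No unadjusted p under 0.05 in any of the 6 tumor contrasts was found for 18 of the 41 tested members. They were Mmp13, Mmp15, Mmp16, Mmp17, Mmp23, Mmp24, Mmp27, Timp3, Timp4, Adamts3, Adamts4, Adamts12, Adamts13, Adamts14, Adamts16, Adamts17, Adamts18 and Adamts20. Their tumor levels spanned the full range, from Mmp16 at 126 to 425 CPM to Adamts20, which was at 0 in 5 of 11 tumors. Adamts12, a protease of cartilage and stroma, lay at 23.3 to 69.8 CPM, and Adamts4, an aggrecanase, reached 29.5 CPM in recurrent DMAG replicate 1 and at most 9.72 in the other 10 tumors.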

How the data were processed

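The authors deposited 1 table of raw counts per gene symbol for 13 ribosome-depleted total RNA libraries. Per the labels and the study's methods, reads were demultiplexed with bcl2fastq 2.20, aligned to mouse build mm10 with STAR and counted with featureCounts (Subread 1.6.2). The strand setting was not given in the sources used here. From these counts, edgeR 4.0.16 in R 4.3.3 (TMM, filterByExpr, robust quasi-likelihood tests, two-sided) was fitted on 13 libraries for the gland contrasts (17135 genes) and on 11 tumors for the others (16870 genes), with Benjamini-Hochberg adjustment over all genes and calls at 0.05. DESeq2 1.42.0 was the main alternative. CPM use TMM library sizes, RPKM use merged GENCODE exon lengths of GRCm38, and log2 CPM for correlations add a prior count of 2. The scripts were tested on simulated counts.

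The symbol rule uses no measured value, but the family and the lists were chosen with earlier results of these data known. Values per library are given for members that were called, for members with an unadjusted p under 0.05 in a tumor contrast and a mean log2 CPM of at least 0, for all Timp genes, and for 10 members best known in mammary tissue. Same-numbered libraries correlated at -0.295 to 0.222 and do not pair. No library duplicated another of its own group, and this was not checked across groups. Promoter sequences are from RefSeq (GRCm38.p6), with entries for 32 of 46 members.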

Additional observations from a re-analysis of the deposited data

How the results depend on the processing

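With 2 to 3 libraries a group, single libraries set most counts of called members. Against the glands, the count of 6 ranged from 0 to 13 when single libraries were left out, the 3 for primary untreated tumors from 0 to 9, and all other counts stayed at 0. DESeq2 called 11 and 10 members there and 4 for recurrence averaged over both arms. A fit with the replicate number as a block, which no label supports as a pairing, called 3 and 0, and 0 members were called when primary untreated tumors and glands were fitted alone. The block ended the calls of Adamts5, Mmp9 and Adamts9 against the glands. Over all alternatives for single members, correlations and the other named genes of matrix turnover included, 1092 kept their direction and side of the threshold, 35 passed it newly, 82 lost it and 3 changed sign. Leaving out libraries for these other genes and for cell type markers was chosen after seeing the data. The 3 were Adamts13 against the glands, 0.55 without gland 1 in place of -1.53 (lowest -2.24, without gland 2), Ctsc against the glands, 0.19 without gland 2 in place of -1.42 (lowest -2.11, without gland 1), and Mmp25 in recurrent against primary tumors under STV, -0.18 without recurrent DMAG+STV replicate 2 in place of 2.38 (highest 3.24, without recurrent DMAG+STV replicate 1). The cause was not tested. Of the 7 correlated pairs, 3 held without the 2 tumors farthest from the median score. Members under 3 counts, 0.0587 to 0.107 CPM, cannot be compared at this depth.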
